A study of Mus musculus with 6 samples.

Results

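The G2 and mitosis genes are 31 mouse genes of the cell division machinery: cyclins and the kinases they activate, spindle checkpoint genes, kinesins, and genes of the centromere, the mitotic chromosome and the cytokinetic furrow. They were chosen by name, and each was looked up by its symbol in the deposited count table. All 31 were found among the 23441 genes of the table, and all 31 passed the filter on low counts that left 14609 genes for testing. Their counts ran from 774 reads, for Cdc25c in CKO replicate 3, to 35452 reads, for Top2a in control replicate 2.

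The data are read counts from polyadenylated RNA of mouse retinae at embryonic day 14.5, in 3 control and 3 conditional knockout (CKO) libraries. Control mice were Ronin flox/flox, with both alleles of the gene floxed and no Cre named in their genotype label. CKO mice were Chx10-Cre::GFP +/tg; Ronin flox/flox, with the same floxed alleles and 1 copy of a transgene in which the Chx10 promoter, active in retinal progenitor cells, drives Cre fused to GFP. Both groups share a mixed background, in which the labels name C57/B6, SJL/B6, 129/Sv and FVB. Ronin is the protein of Thap11, a transcription factor with a THAP zinc finger. The transgene occurs in the CKO group alone, so presence of Cre-GFP and loss of Ronin cannot be told apart. Cells that never expressed Chx10, such as those of vessels or lens, would keep the floxed gene.

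Retinal progenitors at this stage still divide, while ganglion cells and other early neurons have left the cell cycle. Entry into mitosis depends on Cdk1 bound to cyclins A and B. Aurora and Polo-like kinases then build the spindle, the checkpoint holds the anaphase-promoting complex (APC/C) until every kinetochore is attached, and the APC/C marks cyclin B and securin for destruction. Transcripts of this machinery peak together in G2 and M, and their promoters are known for a CHR element, bound by the DREAM and MMB complexes, and for CCAAT boxes, bound by NF-Y. A level measured in bulk RNA rises and falls both with the number of dividing cells and with RNA per cell, which cannot be told apart here.

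Library totals were 24903912 to 26280045 reads in the controls and 23721052 to 28504391 in the CKO. Thap11 itself had 1739, 1880 and 1880 reads in the controls and 323, 292 and 156 in the CKO, and fell to 12.9% of its control level (edgeR quasi-likelihood test, Benjamini-Hochberg adjusted p = 0.00425). Control replicate 2 stood apart from the other controls, with correlations of log2 CPM of 0.954 and 0.973 with them, against 0.985 to 0.992 between the CKO libraries. CPM, counts per 1000000 reads, uses the library size scaled by TMM. Lens genes were also unevenly present: the summed level of 11 lens markers was 10.9 to 16.7 CPM in the controls and 7950, 61.7 and 514 CPM in CKO replicates 1 to 3. The labels do not say whether replicates came from separate animals or pools, so the p-values below speak only of how much these libraries vary, possibly for technical reasons.

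None of the 31 genes passed the test between genotypes (edgeR quasi-likelihood test, adjusted p of 0.05 over all 14609 genes). Over all genes tested, 131 passed, or 0.897%, of which 28 were higher and 103 lower in the CKO. Adjusted p-values of the 31 genes ran from 0.172 to 0.990. At an unadjusted p of 0.05, 4 of the 31 were lower in the CKO (Bub1b, Cenpf, Mki67 and Cenpe) and 0 were higher, against 4.36% lower and 2.22% higher of all tested genes. DESeq2's Wald test called 1 of the 31, Bub1b, as lower, with an adjusted p of 0.00726, and called 1.43% of all tested genes as lower and 0.801% as higher.

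Log2 differences, CKO minus control, ran from -0.73 for Cenpf to 0.20 for Ube2c, with a median of -0.06 against -0.03 over all tested genes. The estimate was negative for 21 of the 31 genes, or 67.7%, against 55.0% of all tested genes. With library size alone as the scaling, 15 were negative and the median was 0.01, against 0.04 over all genes. Differences were small: 25 of 31 (80.6%) were within 1.2-fold in either direction, against 69.95% of all tested genes. The 95% interval of the difference, taken gene by gene with no adjustment, stayed within 2-fold in both directions for 30 of the 31, the exception being Cenpf, whose interval ran from -1.21 to -0.25. The groups did not overlap, with all CKO libraries below all controls, for 4 genes: Bub1b, Cenpf, Cenpe and Tpx2, or 12.9% against 6.91% of all tested genes. The reverse order, all CKO libraries above all controls, held for 0 of the 31 against 5.74% of all tested genes.

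**Figure D1:**
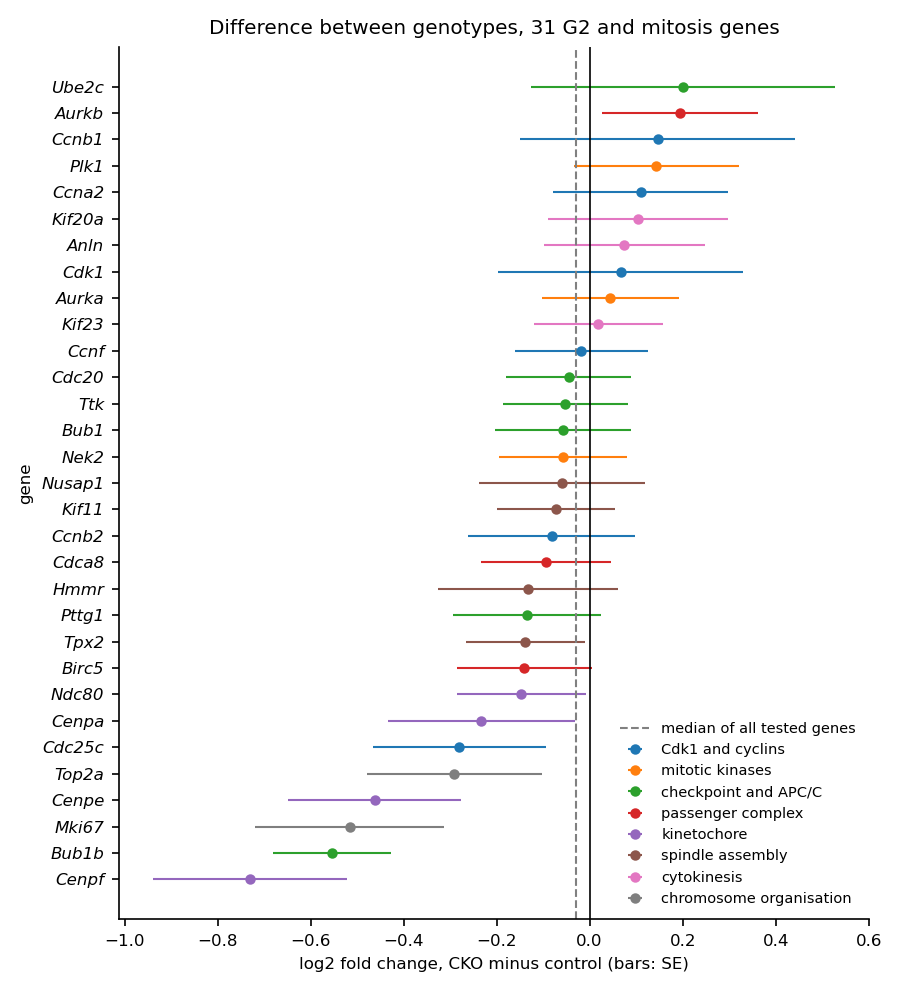
Log2 fold change, CKO minus control, of the 31 G2 and mitosis genes, in order of size, with bars of 1 SE from the edgeR fit of 3 control and 3 CKO libraries; colours mark the role of each gene and the dashed line is the median of all tested genes, -0.03. Ube2c is at 0.20 at the top and Cenpf at -0.73 at the bottom, and Cenpf, Bub1b, Mki67 and Cenpe lie to the left of the rest.

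The Cdk1 and cyclin group, which drives entry into mitosis, had 6 genes, of which 0 were called and 3 had a negative estimate, with a median of 0.02. Cdk1, the catalytic subunit, had 4840, 1973 and 3442 reads in the controls and 4293, 3570 and 3533 in the CKO. The 3 CKO values lay inside the control range, which was 2.21-fold wide. Its level was 136 ± 52.1 CPM in control and 142 ± 7.93 CPM in CKO libraries (mean ± SD, n = 3 each), and the log2 difference was 0.07 with a 95% interval of -0.54 to 0.68. Ccnb1, cyclin B1, had 2468, 898 and 2120 reads against 2342, 2089 and 1977, so that control replicate 2 was again the low library. Its mean was 72.2 ± 29.8 CPM in control and 79.9 ± 1.72 CPM in CKO libraries.

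Ccna2, cyclin A2, had the highest counts of the group, with 7300, 4099 and 6865 reads in the controls and 7940, 6879 and 6174 in the CKO. Its log2 difference was 0.11 ± 0.19 (SE; edgeR adjusted p = 0.957). Cdc25c, the phosphatase that activates Cdk1, went the other way in control replicate 2, which was its highest library: 854, 1093 and 814 reads against 886, 805 and 774. Its log2 difference was -0.28 ± 0.19 (edgeR adjusted p = 0.921), and the groups overlapped. Ccnb2, cyclin B2, and Ccnf, an F-box protein that is itself a cyclin, stood at -0.08 ± 0.18 and -0.02 ± 0.14 on the log2 scale.

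Promoter windows of 250 bases before to 50 bases after the start were available for 26 of the 31 genes (RefSeq, GRCm38.p6), all except Ccna2, Cdc25c, Aurkb, Tpx2 and Kif20a. Shares are of genes, and a gene with several windows counted once. A CHR element, searched as TTTGAA on both strands, was found for 19 of the 26 genes (73.1%). It was found for 20.2% of all 27025 genes with a window and 13.7% of tested genes. CCAAT, on both strands, was found for 21 of 26 (80.8%), against 41.1% and 42.7%. These are matches of letters and not sites shown to be bound. The last 120 bases before the start of Cdk1 and Ccnb2 are shown because they hold several copies of the letters typical of the group, a feature that did not enter the choice of genes. They are written on the strand of the gene, which is the minus strand for both, at chr10:69352913-69353032 for Cdk1 and chr9:70421555-70421674 for Ccnb2. Capitals mark TTTGAA and CCAAT on either strand, and in the promoters printed further down also ACTACA.
Cdk1: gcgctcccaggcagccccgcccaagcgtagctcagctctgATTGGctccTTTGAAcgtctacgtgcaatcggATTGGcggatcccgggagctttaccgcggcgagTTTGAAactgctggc
Ccnb2: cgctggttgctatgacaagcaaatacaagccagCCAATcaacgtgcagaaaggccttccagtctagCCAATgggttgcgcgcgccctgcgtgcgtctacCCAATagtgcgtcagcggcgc
In Cdk1 the CHR letters begin at -71 and -15, counted from the start, and the CCAAT letters, in reverse, at -208, -80 and -48. In Ccnb2 CCAAT begins at -87, -54 and -21. The CHR letters of Ccnb2 begin at -167 and 5, outside the stretch printed.

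The mitotic kinases Plk1, Aurka and Nek2 act on centrosomes and the spindle. Of these 3 genes 0 were called, and the median log2 difference was 0.04. Plk1 had 1873, 1131 and 1881 reads in the controls and 2147, 1812 and 1781 in the CKO, and Nek2, which splits the centrosomes, had 2219, 1656 and 2244 against 2473, 2012 and 1821. For both, control replicate 2 was the lowest library and the other controls overlapped the CKO. The log2 differences were 0.14 ± 0.18 for Plk1, -0.06 ± 0.14 for Nek2 and 0.04 ± 0.15 for Aurka.

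The checkpoint and APC/C group had 6 genes, with 0 called, 5 negative estimates and a median of -0.05. Bub1b, which encodes the checkpoint kinase-like protein BubR1, had the smallest p of all 31 genes. It had 4628, 4111 and 4667 reads in the controls and 3908, 3117 and 2816 in the CKO. On the CPM scale the controls were at 182, 179 and 178, and the CKO at 135, 116 and 115, so the groups did not overlap and the controls lay closer together than for any other member. The CKO level was 68.1% of the control level, and the log2 difference was -0.55 ± 0.13 (95% interval -0.85 to -0.26, unadjusted p = 0.00255, edgeR adjusted p = 0.172).

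That estimate for Bub1b ran from -0.63 to -0.48 over 15 alternative analyses, and it was negative in every one of them. Its adjusted p was under 0.05 with DESeq2 (0.00726) and with limma-voom using library weights (0.0180), the latter chosen after seeing the data. In the other 13 alternatives it was not, and without CKO replicate 1, 2 or 3 the edgeR adjusted p was 0.409, 0.949 or 0.945. Without control replicate 2 it was 0.0660. In CKO replicates 1 to 3 the lens markers summed to 7950, 61.7 and 514 CPM, and Bub1b was at 135, 116 and 115 CPM. Without CKO replicate 1 the log2 difference was -0.63. The part of lens tissue in the Bub1b values was not tested.

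The promoter of Bub1b is printed because Bub1b alone among the 26 genes holds the 12-base pattern ACTACANNNCCC, in 2 copies that begin at -87 and -37. ACTACA is the core of the motif known for THAP11 and its partner ZNF143, and the longer pattern was chosen after the promoters had been read. The core alone was found for 3 of the 26 genes (11.5%), Bub1b, Cdca8 and Kif11, against 11.8% of all genes. The longer pattern was in 1 of 26 (3.85%), against 2.41% of all genes and 5.03% of tested genes. The bases are chr2:118598091-118598210 on the plus strand for Bub1b. Cdc20, at chr4:118437344-118437463 on the minus strand, is set beside it as a gene of the same group with the CHR and CCAAT letters and without the core.
Bub1b: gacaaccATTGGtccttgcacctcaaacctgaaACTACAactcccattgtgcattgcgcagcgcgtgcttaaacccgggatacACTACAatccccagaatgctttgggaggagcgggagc
Cdc20: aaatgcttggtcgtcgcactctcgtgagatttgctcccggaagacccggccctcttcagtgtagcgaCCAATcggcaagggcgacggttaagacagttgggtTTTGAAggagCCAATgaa
Bub1b also has a CCAAT box in reverse at -113 and CHR letters at 41, after the start and so not printed. In Cdc20 CCAAT begins at -53 and -8 and TTTGAA at -18. A match of letters does not show that a factor binds there.

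**Figure D2:**
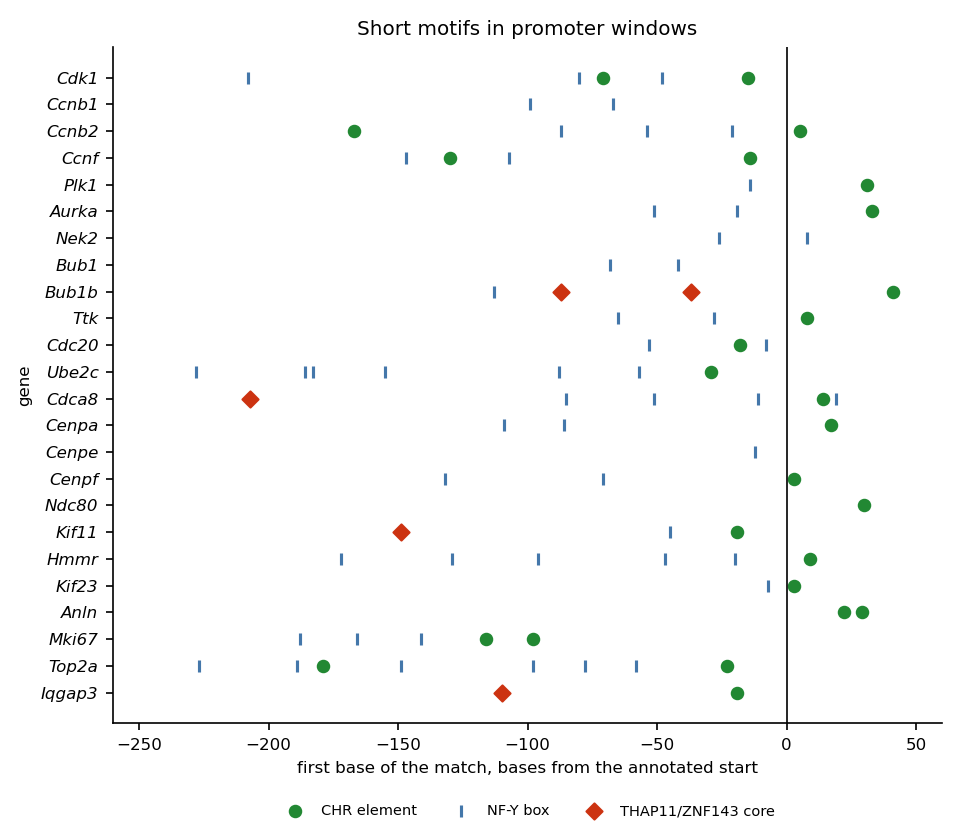
Position of the first base of each match, in bases from the annotated start, in the promoter windows of the 23 members with a match and of Iqgap3; circles are the CHR element, bars the NF-Y (CCAAT) box and diamonds the THAP11/ZNF143 core. Circles and bars appear in most rows, and diamonds in Bub1b, Cdca8 and Kif11 among the members, with 2 in Bub1b.

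Ube2c, the E2 enzyme of the APC/C, had the widest controls of the 31 genes: 2663, 852 and 2103 reads, against 2515, 2169 and 2124 in the CKO. The control range was 2.81-fold and the CKO range 1.08-fold, and the 3 CKO libraries lay between control replicates 2 and 1. Its log2 difference of 0.20, the highest of the 31, had a 95% interval of -0.56 to 0.96 and became -0.11 without control replicate 2. The remaining genes of the group were Bub1 and Ttk, kinases of the checkpoint, Cdc20, the activator that the checkpoint holds back, and Pttg1, which encodes securin. Their log2 differences were -0.06 ± 0.15, -0.05 ± 0.13, -0.04 ± 0.13 and -0.13 ± 0.16, and in each the groups overlapped.

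The chromosomal passenger complex corrects faulty attachments and later marks the site of division. Its kinase, Aurkb, had 2843, 1746 and 2807 reads in the controls and 3359, 2958 and 2698 in the CKO. The level was 98.2 ± 19.2 CPM in control and 112 ± 3.41 CPM in CKO libraries, a log2 difference of 0.19 ± 0.17 (edgeR adjusted p = 0.940), and the groups overlapped through control replicate 1. Aurkb was also the only one of the 31 genes with a positive estimate in the fit and in all 15 alternatives. Cdca8, which encodes borealin, had 4444, 4594 and 4075 reads against 5067, 4296 and 3932, with a log2 difference of -0.09 ± 0.14. Birc5, which encodes survivin, stood at -0.14 ± 0.15.

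The centromere and kinetochore group had 4 genes, all with a negative estimate, a median of -0.35 and 0 called. Cenpf, a large coiled-coil protein of the outer kinetochore that accumulates in G2, had 6577, 10208 and 8211 reads in the controls and 6175, 5691 and 4555 in the CKO. Its level was 339 ± 96.2 CPM in control and 204 ± 15.5 CPM in CKO libraries, or 60.3% of the control level. The log2 difference of -0.73 ± 0.21 was the lowest of the 31 genes, with an edgeR adjusted p of 0.344. All CKO libraries were below all controls, yet control replicate 2 held the top value, 445 CPM, and without it the difference was -0.47. Limma-voom with library weights, chosen after seeing the data, gave -0.62 with an adjusted p of 0.0342, the 1 alternative of 15 that called Cenpf. The weights of that fit, which also called Bub1b, were 0.315, 0.14 and 1.417 for control replicates 1 to 3. For CKO replicates 1 to 3 they were 1.4, 3.553 and 3.215, so control replicate 3 counted most among the controls.

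Cenpe, the kinetochore motor that carries chromosomes to the spindle equator, had 4051, 5846 and 5169 reads against 3994, 4067 and 3748. Its levels of 204 ± 48.3 CPM and 148 ± 8.28 CPM did not overlap between groups, and the log2 difference was -0.46 ± 0.19 (edgeR adjusted p = 0.696). Control replicate 2 was the highest library here too, and the difference without it was -0.25. Cenpa, the histone H3 variant that marks the centromere, had its top value in control replicate 1, at 135 CPM against 81.5 to 93.3 CPM in the other 5 libraries, and a log2 difference of -0.23 ± 0.20. Ndc80, which binds microtubules at the kinetochore, stood at -0.15 ± 0.14.

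Spindle assembly was represented by 4 genes, all with a negative estimate, a median of -0.10 and 0 called. Tpx2, which activates Aurora A and nucleates spindle microtubules, had 7371, 7716 and 7458 reads in the controls and 8035, 7213 and 6828 in the CKO. On the CPM scale the CKO libraries, at 278, 269 and 279, lay just below the lowest control, at 284. The means were 303 ± 28.9 and 275 ± 5.46 CPM and the log2 difference was -0.14 ± 0.13 (edgeR adjusted p = 0.940), which became -0.04 without control replicate 2. Kif11, the motor that separates the spindle poles, Nusap1, which bundles microtubules, and Hmmr, a spindle pole protein, stood at -0.07 ± 0.13, -0.06 ± 0.18 and -0.13 ± 0.19.

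The cytokinesis genes were the 1 group with no negative estimate, with 3 positive values, a median of 0.07 and 0 called. Kif20a and Kif23 encode kinesins of the central spindle, and Anln encodes anillin, a scaffold of the contractile ring. Kif20a had 2934, 1621 and 2834 reads in the controls and 2950, 2745 and 2722 in the CKO, with control replicate 2 lowest and the other libraries between 102 and 115 CPM. Kif23 had 2765, 3104 and 3516 reads against 3444, 3564 and 3191, and on the CPM scale the 3 CKO libraries lay inside the control range. The log2 differences were 0.10 ± 0.19, 0.02 ± 0.14 and, for Anln, 0.07 ± 0.17.

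Mki67, which encodes the proliferation marker Ki-67 that coats mitotic chromosomes, had 12778, 19083 and 20002 reads in the controls and 13280, 14596 and 11263 in the CKO. Control replicate 1, at 501 CPM, lay among the CKO libraries, which were at 460, 545 and 460 CPM, and the other controls were at 832 and 761 CPM. The log2 difference was -0.52 ± 0.20 (unadjusted p = 0.0354, edgeR adjusted p = 0.681), and -0.36 without control replicate 2. Top2a, the topoisomerase that disentangles sister chromatids, had 24719, 35452 and 28674 reads against 26505, 26961 and 25090. Its difference of -0.29 ± 0.19 (edgeR adjusted p = 0.916) rested mostly on control replicate 2, at 1546 CPM, and was -0.06 without it.

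**Figure D3:**
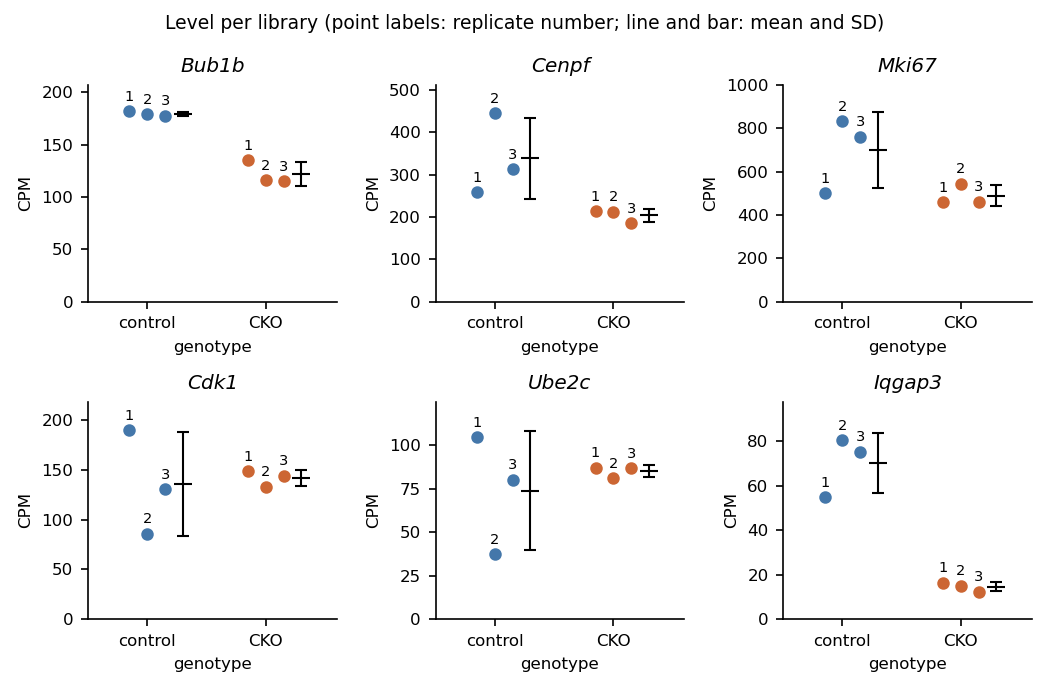
CPM in each library for 5 members and for Iqgap3, with points numbered by replicate, control in blue and CKO in orange, and the mean and SD of 3 libraries beside them; every vertical axis starts at 0. Bub1b and Iqgap3 show separate groups, Cenpf is separate with control replicate 2 far above the rest, and in Cdk1 and Ube2c the CKO points lie inside the control range.

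The controls varied more than the CKO libraries for nearly all of these genes. The SD of log2 CPM had a median over the 31 genes of 0.309 in the controls and 0.0763 in the CKO, and was larger in the controls for 30 of the 31, all except Bub1b. Over all tested genes the medians were 0.303 and 0.0940, and the SD was larger in the controls for 12810 of 14609. The wide controls were thus not limited to this machinery. Across the 31 genes the control range was 1.02-fold to 2.81-fold and the CKO range 1.01-fold to 1.19-fold. Control replicate 2 was the lowest control for 17 of the 31 and the highest for 10, against 5839 and 5887 of all 14609 tested genes. Genes lowest there included Cdk1, Ccnb1, Ccna2, Plk1, Aurkb and Ube2c, and genes highest there Cenpe, Cenpf, Mki67, Top2a, Cdc25c and Tpx2. Control replicate 1 was the highest control for 21 of the 31, against 5208 of the 14609.

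Those directions are visible in the estimates: without control replicate 2, 27 of the 31 were negative, with a median of -0.11, against -0.01 over all genes. Cdk1 became -0.16 and Ccnb1 -0.14. Without control replicate 1 instead, 15 were negative and the median was 0.01, against -0.03 over all genes. Over 15 alternative analyses, 10 of the 31 kept 1 sign: 9 stayed negative (Bub1b, Cenpf, Cenpe, Ndc80, Kif11, Tpx2, Cdc25c, Mki67 and Top2a) and 1 stayed positive (Aurkb). Their values nearest 0 were -0.48 for Bub1b, -0.47 for Cenpf, -0.36 for Mki67 and -0.25 for Cenpe. The rest came closer: -0.003 for Kif11, -0.04 for Tpx2, -0.05 for Cdc25c, -0.06 for Ndc80 and Top2a, and 0.05 for Aurkb. The alternatives reuse the same libraries, and the share of all tested genes that kept 1 sign was not counted.

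**Figure D4:**
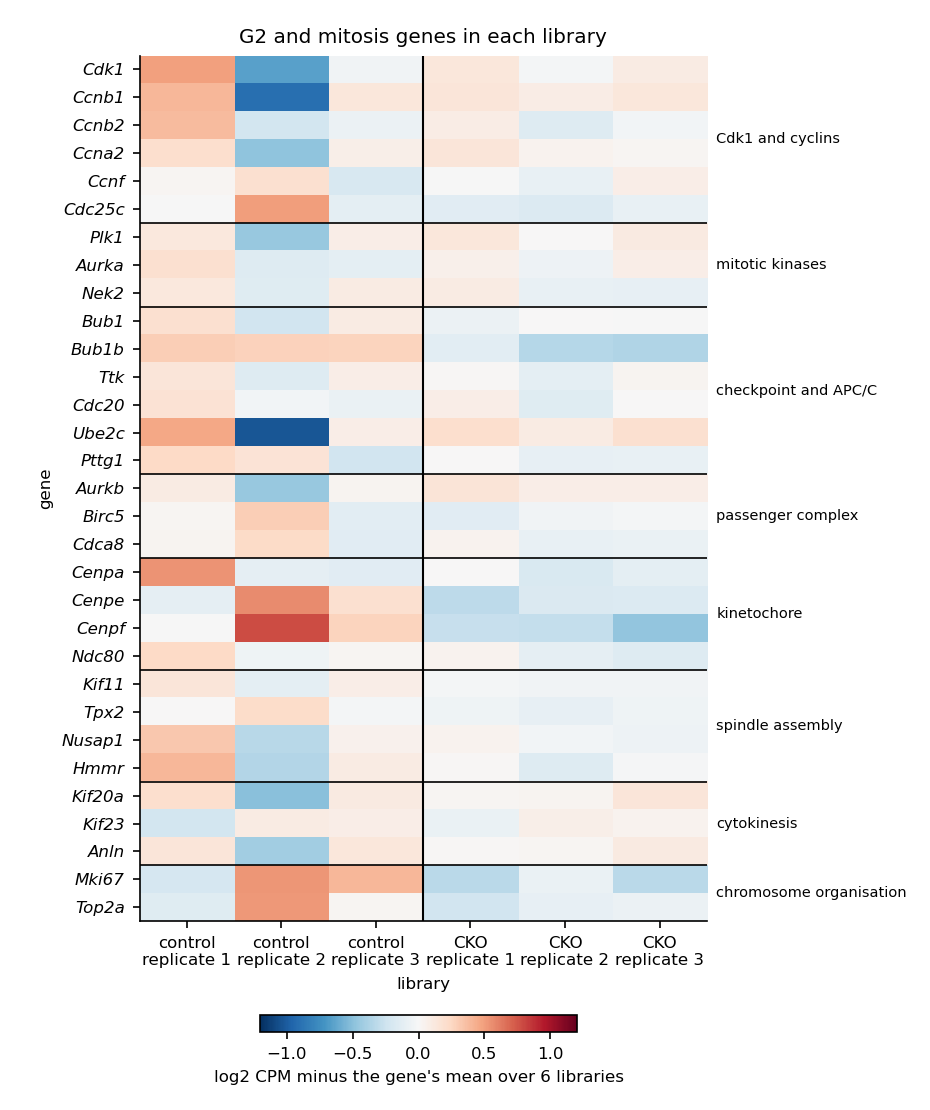
Log2 CPM of each of the 31 genes (rows, grouped by role) in each library (columns), minus the mean of the gene over the 6 libraries; red is above and blue below that mean. Control replicate 2 holds the deepest blue (Ube2c, Ccnb1, Cdk1) and the deepest red (Cenpf) of the map, and the CKO columns are pale outside Bub1b, Cenpe, Cenpf and Mki67.

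**Figure D5:**
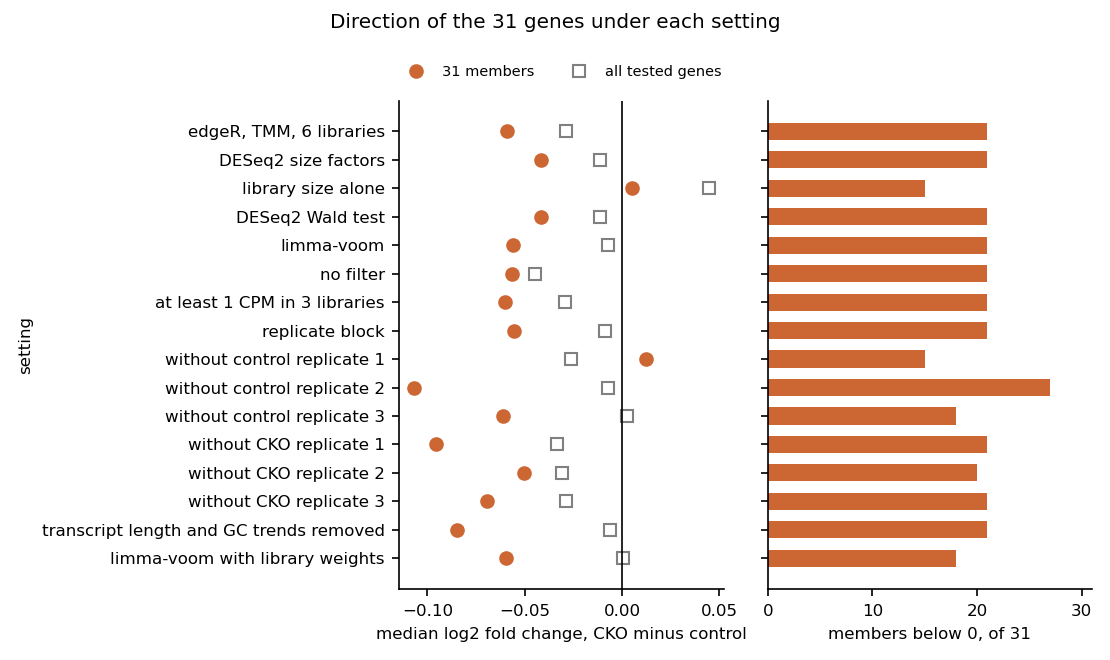
Left, median log2 fold change of the 31 genes (circles) and of all tested genes (squares) under the edgeR fit and each of 15 alternatives; right, the number of the 31 with a negative estimate, on an axis that starts at 0. The number is 27 without control replicate 2 and 15 without control replicate 1 or with library size alone.

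Deviations of single libraries were compared with transcript length and base composition. In control replicate 2 the deviation of a gene from its mean had a rank correlation with transcript GC content of 0.56 across 11432 genes above 5 CPM, but -0.07 across the 31, and with transcript length 0.01 and 0.22. In control replicate 3 the correlation with transcript length was 0.51 across those genes and 0.62 across the 31. Cenpf, Mki67 and Cenpe, with transcripts of 11130, 10061 and 7910 bases, are the 3 longest of the 31 and had 3 of the 4 lowest estimates. Over the 31 genes the log2 difference and transcript length had a rank correlation of -0.24, against -0.08 over the 11432. These are correlations across genes of the same libraries, and genes are not replicates. With length and GC trends removed, an analysis chosen after seeing the data, 21 of 31 were negative, the median was -0.08 and 0 were called. In that analysis Bub1b had an edgeR adjusted p of 0.0540. Cenpf, Mki67 and Cenpe stood at -0.65, -0.38 and -0.46 there, against -0.73, -0.52 and -0.46 with the trends left in. Top2a stood at -0.38 against -0.29. The causes were not tested.

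The order of expression among the 31 genes was similar in both genotypes. On a scale of CPM per kilobase of transcript, Top2a was highest, at 230 in the controls and 188 in the CKO, followed by Cdca8 at 109 and 102. Cdc25c was lowest in both, at 19.2 and 15.8. Of the genes that moved by more than 3 places, Cenpf went from place 20 to 30, Mki67 from 8 to 13 and Ndc80 from 18 to 22, while Plk1 went from 23 to 18, Ccnb1 from 24 to 20 and Aurkb from 13 to 9. Bub1b was at 14 and 17, and the rank correlation of the levels of the 31 genes between genotypes was 0.949. Summed over the 31, the level was 5397, 5883 and 5476 CPM in the controls and 4853, 4866 and 4869 CPM in the CKO. Mki67 and Top2a made up much of that gap: without this pair, picked after seeing the values, the sums were 3925, 3505 and 3624 CPM against 3476, 3315 and 3383 CPM. On this TMM scale the sum over all tested genes follows almost entirely from each library's scaling factor. That sum does not measure expression. It was 995047, 1085410 and 999629 CPM in the controls and 985848, 966823 and 969311 CPM in the CKO.

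Genes of the same pathway outside the 31 were described in 6 further lists with 128 tested genes. Of these, 1 was called, against 0.897% of all tested genes, and 65 had a negative estimate, with a median of -0.00. At an unadjusted p of 0.05, edgeR had 3 of the 128 lower and 4 higher, against 4.36% and 2.22% of all tested genes, and DESeq2 called 1 lower and 1 higher, against 1.43% and 0.801%. The groups did not overlap, with the CKO lower, for 14 of the 128 (10.9% against 6.91% of all tested genes), and with the CKO higher for 9 (7.03% against 5.74%). The gene called by edgeR was Iqgap3, a scaffold protein of the actin cortex found among genes of dividing cells. It had 1397, 1843 and 1978 reads in the controls and 471, 401 and 302 in the CKO, so the groups were far apart. Its level fell from 70.2 ± 13.5 to 14.5 ± 2.01 CPM, a 4.82-fold decrease (log2 difference -2.27 ± 0.20, edgeR adjusted p = 0.00554). It was called in all 15 alternatives, with log2 differences from -2.42 to -2.15. The promoter of Iqgap3 is shown beside that of Bub1b as the called gene of the pathway, at chr3:88081931-88082050 on the plus strand, with capitals as above.
Iqgap3: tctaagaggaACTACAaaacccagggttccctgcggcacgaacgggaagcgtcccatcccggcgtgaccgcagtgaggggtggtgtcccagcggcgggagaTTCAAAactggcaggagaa
ACTACANNNCCC begins at -110 in Iqgap3, in 1 copy, and the CHR letters, in reverse, begin at -19.

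The other kinetochore genes numbered 32, with 0 called, 14 negative and a median of 0.02. Their smallest p was that of Spc24, a partner of Ndc80, at 50.1 ± 8.91 CPM in control and 36.0 ± 1.99 CPM in CKO libraries with no overlap (log2 difference -0.48 ± 0.16, edgeR adjusted p = 0.539). The other spindle and cytokinesis genes numbered 34, with Iqgap3 called and a median of -0.07. The most abundant, Ckap5, a microtubule polymerase, was at 552 ± 55.0 and 519 ± 18.6 CPM. Among 16 condensin and cohesin genes 0 were called, 12 were negative and the median was -0.09. Esco2, which acetylates cohesin, was the smallest p there, at 57.0 ± 12.8 and 77.7 ± 4.92 CPM with no overlap (edgeR adjusted p = 0.738), and Ncapd2, a condensin subunit, was at 653 ± 208 and 542 ± 29.3 CPM. Incenp, the inner scaffold of the passenger complex, was at 209 ± 56.1 and 173 ± 6.92 CPM.

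Of 15 APC/C subunits and regulators 0 were called, and the median was -0.01. Ube2s, the enzyme that extends the chains begun by Ube2c, stood at -0.33 ± 0.19, and Anapc5, a scaffold subunit and the most abundant of the list, at -0.05 ± 0.15. Among 14 regulators of mitotic entry 0 were called and the median was 0.05. Chek2, a kinase of the DNA damage response, was at 14.0 ± 0.978 and 19.4 ± 0.860 CPM with no overlap (log2 difference 0.48 ± 0.14, edgeR adjusted p = 0.400), and Arpp19, an inhibitor of PP2A in mitosis, was at 182 ± 59.3 and 190 ± 10.3 CPM. The transcription factors of G2 and M genes, with their regulators, numbered 17, with 0 called, 4 negative and a median of 0.09. All CKO libraries were above all controls for 4 of the 17 (Cdkn1a, Nfya, Rbl2 and Trp53) and below them for 1 (E2f4), against 5.74% and 6.91% of all tested genes; these names were taken after seeing the values. Cdkn1a, which encodes the Cdk inhibitor p21, had 224, 215 and 244 reads in the controls and 388, 380 and 332 in the CKO, or 9.15 ± 0.314 and 13.7 ± 0.400 CPM. Its log2 difference was 0.58 ± 0.15 with an edgeR adjusted p of 0.226, and DESeq2 called it as higher with an adjusted p of 0.0126. Rbbp4, a DREAM subunit, was at 403 ± 122 and 401 ± 11.4 CPM.

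S-phase genes, for comparison, numbered 43 with a median of -0.06 and 28 negative estimates. Of the 43, 1 was called, Prim1, against 0.897% of all tested genes. Prim1, the catalytic subunit of primase, had 2764, 1821 and 2416 reads against 994, 846 and 728, a 2.92-fold decrease (edgeR adjusted p = 0.00722). Prim1 missed the threshold when control replicate 3 was left out, at an edgeR adjusted p of 0.0637, and when CKO replicate 3 was, at 0.0671. Mcm6, of the replicative helicase, was at 405 ± 51.3 and 357 ± 3.96 CPM.

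Retinal progenitors divide at this stage, and their markers overlapped between the groups when summed. Log2 differences of the 12 single markers ran from -0.44 to 0.17. All CKO libraries were below all controls for 1 of the 12 and above them for 1 (8.33% each), against 6.91% and 5.74% of all tested genes. The summed level of 12 retinal progenitor markers, 0 of them called, was 6069, 5535 and 5696 CPM in the controls and 5858, 5686 and 5760 CPM in the CKO, and 12 ganglion cell markers summed to 4370 to 5476 CPM and 4776 to 4999 CPM. Photoreceptor precursor markers summed to 575 to 776 and 714 to 795 CPM, and amacrine and horizontal cell markers to 267 to 379 and 272 to 315 CPM. Markers of neighbouring tissues were 33.0 to 65.8 and 29.9 to 32.5 CPM for pigment epithelium, 271 to 327 and 241 to 260 CPM for vessels, 76.5 to 190.2 and 58.2 to 78.4 CPM for mesenchyme, and 31.6 to 42.7 and 32.1 to 41.3 CPM for microglia. Control replicate 2, the library at 190.2 CPM for mesenchyme, was the highest control for 10 of the 31 genes and the lowest for 17. The 5 erythroid markers summed to 4.38 to 6.02 and 2.24 to 3.72 CPM, nearly all of it Alas2, while Hba-a2, Hbb-b1 and Hbb-b2 were at 0 in every library. Alas2, the 1 tested marker of that list, stood at -0.88 ± 0.26 with no overlap between groups (unadjusted p = 0.010019, edgeR adjusted p = 0.378). The part of these tissues in the values of the 31 genes was not tested.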

How the data were processed

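Gene read counts of 3 control and 3 CKO retinal libraries were taken from 1 table that the authors deposited, and groups were read from titles and genotypes. The tools named per the submitters' processing notes are HTSeq 0.5.4p3, BWA 0.7.6a-r433 and DESeq 2.13, with build mm9. Annotation and strandedness were not given in the sources used here. Reads of antisense genes therefore cannot be told apart, and near-identical copies may share reads. Skipped were 3 lines left by a merge conflict, 1 blank line and the repeat of 1 gene.

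The test was edgeR 4.0.16 (R 4.3.3) on these counts: filterByExpr (minimum count 10), TMM scaling, glmQLFit and glmQLFTest with genotype only, Benjamini-Hochberg adjustment over 14609 genes and an adjusted p threshold of 0.05. The script was tested on simulated data. The SE of a log2 fold change is its size over the root of F, and 95% intervals use the t quantile of the same fit. All library pairs differed beyond sampling noise (chi-square per degree of freedom at least 5.77). The 31 genes, their 8 role groups and the further lists were chosen with earlier results of these data known, so lists are described by counts and medians. Counts per library are given for genes whose groups do not overlap or whose range within a group is at least 2-fold, and for the most abundant gene and that with the smallest p in each role group; from each further list, called genes, the smallest p and the most abundant are named.

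Alternatives were DESeq2 size factors, library size alone, DESeq2 1.42.0, limma-voom (limma 3.58.1), no filter, at least 1 CPM in 3 libraries, the replicate number as a block, each library left out, and an adjusted p of 0.01. Chosen after seeing the data were limma-voom with library weights and removal of trends on transcript length and GC content (loess, span 0.5; lengths for 98.3% of genes from the longest principal transcript of GENCODE M21). Promoters are RefSeq sequences of GRCm38.p6, another build than that of the counts.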

Additional observations from a re-analysis of the deposited data

How the results depend on the processing

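The call of 0 of the 31 genes held in 13 of 15 alternative analyses. At an adjusted p of 0.01 in the same fit the number can only be 0 as well, so that threshold adds nothing here. DESeq2 called 1 (Bub1b) and limma-voom with library weights 2 (Bub1b and Cenpf). Over all genes, 131 calls became 326 with DESeq2, 207 with length and GC trends removed, 343 with library weights and 39 at an adjusted p of 0.01, and 16 to 219 when 1 library was left out: 97, 219 and 33 without control replicates 1, 2 and 3, and 41, 53 and 16 without CKO replicates 1, 2 and 3. In each of these leave-one-out fits 0 of the 31 were called. The number of negative estimates, 21, ran from 15 to 27, and the median, -0.06, from -0.11 to 0.01, in the leave-one-out fits. The causes were not tested. With the replicate number as a block (replicate block), 153 genes and 0 of the 31 were called, the median was -0.06, and Bub1b had an adjusted p of 0.335. Deviations of same-numbered libraries correlated at 0.336, 0.107 and -0.01. Control replicate 1 correlated best with its own number, and control replicates 2 and 3 with other numbers (0.142 and 0.201). The labels do not say whether same-numbered libraries share a litter or a batch, and this was not tested. The SE of the 31 log2 differences ran from 0.13 to 0.33, which sets the size of change that could be told from 0 at this depth and number of libraries.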

Other observations

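The pattern ACTACANNNCCC is present in Bub1b and Iqgap3. Among genes with a promoter window, it was found for 71 of the 83 called lower in the CKO (85.5%). It was found for 8 of the 19 called higher (42.1%), against 5.03% of tested genes. Prim1 holds it at -83. In the further G2 and mitosis lists the pattern was also present in genes with a positive estimate. Cenpt, Bub3 and Zw10 stood at 0.33, 0.15 and 0.03 on the log2 scale. Espl1, Gtse1, Chek2 and Arpp19 stood at 0.35, 0.32, 0.48 and 0.06. Cdc26 and Rbl2 hold it too, as do Cdc45, Fen1 and Lig1 among the S-phase genes. The core ACTACA was in 78 of 83 (94.0%) and 9 of 19 (47.4%). The pattern was chosen after the promoters had been read, so these shares are descriptions with no test. Bub1b, with 2 copies, stood at -0.55 on the log2 scale and did not pass the edgeR threshold, while Iqgap3, with 1 copy, stood at -2.27 and did. Cdca8 and Kif11, which hold the core without the longer pattern, stood at -0.09 ± 0.14 and -0.07 ± 0.13.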
